A study of Mus musculus with 6 samples.

Results

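The NR4A family consists of 3 genes, Nr4a1, Nr4a2 and Nr4a3, which encode the orphan nuclear receptors Nur77, Nurr1 and Nor1. The rows of the deposited table were matched by gene symbol, and all 3 members were found among its 854 genes. The table compares OT-I cells, mouse CD8 T cells with a transgenic T-cell receptor (TCR) for an ovalbumin peptide, that were wild-type (WT) or lacked Themis through a conditional knockout (Themis cKO). Themis is found in T cells and thymocytes and takes part in signalling from the TCR. Naive OT-I cells of both genotypes were enriched from spleen and lymph nodes and kept for 3 days with IL-2 at 1 µg/ml, and 3 libraries were sequenced per genotype. The Cre driver, the exons removed, the age of the mice and whether the libraries of a genotype came from separate animals were not found in the labels. The p-values below therefore speak to the variation among 3 libraries per genotype, which may be technical. No genotype was sequenced before culture or without IL-2, so every value below describes cells of both genotypes after the same culture.

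NR4A proteins are nuclear receptors that act without a known hormone, so their activity follows largely from how much protein is made. Their genes are immediate early genes, transcribed within a short time of a signal without new protein synthesis, and in T cells the main signal is TCR engagement, which acts through calcium, MEF2 factors and CREB-type factors. Nur77 is widely used as a reporter of TCR signal strength, takes part in the deletion of self-reactive thymocytes, and together with Nurr1 and Nor1 is linked to tolerance and exhaustion of CD8 T cells. All 3 receptors bind the same DNA element, the NBRE, and Nur77 and Nurr1 can also pair with the retinoid X receptor RXR, which Nor1 does not.

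The promoters of the 3 members are shown first because the sequences before their RefSeq starts share a feature. Whether this feature bears on the values below was not tested. All 3 members had a promoter entry in RefSeq (GRCm38.p6). Capitals mark every TGACG on either strand (CGTCA when read on the opposite strand), the core of the cAMP response element (CRE) that CREB-type factors bind. Nr4a1 and Nr4a2 are given as the 250 bases before the RefSeq transcript start, 5′ to 3′ on the gene's strand, at chr15:101266596-101266845 (plus strand) and chr2:57124004-57124253 (minus strand). No GENCODE M21 exon overlaps either window. The Nr4a1 window lies inside the RefSeq span of the gene (101253902 to 101274795), so it precedes the start used here and not the whole gene. The Nr4a3 window overlaps an exon of 2 GENCODE transcripts, so only 20-base stretches around its matches are given. They are at chr4:48045066-48045085, chr4:48045088-48045107 and chr4:48045150-48045169 (plus strand). Those from 48045088 on lie inside the RefSeq span of the gene (48045078 to 48086447).
Nr4a1: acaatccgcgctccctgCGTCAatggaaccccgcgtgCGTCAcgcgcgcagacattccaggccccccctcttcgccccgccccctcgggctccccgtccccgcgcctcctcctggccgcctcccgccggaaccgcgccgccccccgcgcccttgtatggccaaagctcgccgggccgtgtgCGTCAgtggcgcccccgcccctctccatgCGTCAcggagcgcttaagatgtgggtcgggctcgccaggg
Nr4a2: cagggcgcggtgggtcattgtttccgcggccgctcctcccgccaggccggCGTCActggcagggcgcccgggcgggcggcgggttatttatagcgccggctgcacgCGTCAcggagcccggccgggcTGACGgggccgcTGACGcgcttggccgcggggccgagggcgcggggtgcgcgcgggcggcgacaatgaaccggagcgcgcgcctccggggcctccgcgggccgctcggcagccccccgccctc
Nr4a3, stretch A: gaggagggTGACGtagcgtc
Nr4a3, stretch B: atgtCGTCAcatTGACGtct
Nr4a3, stretch C: ggcataaaTGACGtgccgag

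Each of the 3 windows held 4 CRE cores. Over all 32851 RefSeq windows of the same length, 17.8% held at least 1 and 0.137% (45 windows of 44 genes) held at least 4. The windows were rich in G and C (74.4% in Nr4a1, 80.0% in Nr4a2 and 63.6% in Nr4a3), and among the 6582 windows with a GC share of 63.6% or more the share with at least 4 was 0.380%. Of the 44 genes, 6 were in the deposited table: the 3 NR4A genes, Dusp8, Pak1 and Mturn, of which Mturn was higher in cKO and the rest lower, where 75.8% of all tested genes were lower. Pak1 turned sign under scalings that centre the table on itself (-1.13 as reported and 0.15 or 0.16 with these scalings on the log2 scale). In Nr4a1 all 4 cores belonged to the longer CRE-like word TGACGCA, which overlaps TGACG and was found at least once in 1.75% of all windows. It was absent from the Nr4a2 window and the Nr4a3 window. A full CRE (TGACGTCA, in 1.55% of windows), an AP-1 site (TGANTCA, 6.75%), an NBRE (AAAGGTCA, 1.34%) and a CArG box (1.47%) matched in none of the 3 windows on either strand. Nr4a2 had a MEF2 site 167 to 158 bases before its start (2.92% of windows) and an NFAT core, GGAAA (55.6%). These are matches of letters, and binding was not measured.

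**Figure D1:**
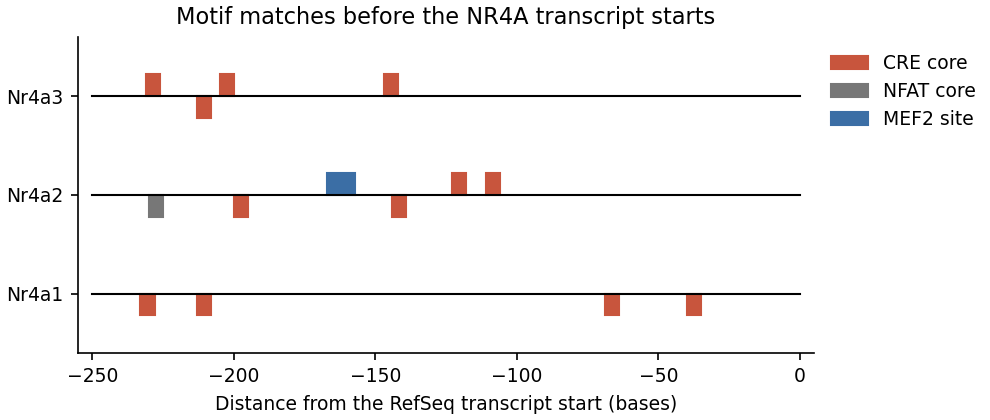
Motif matches in the 250 bases before the RefSeq transcript start of each NR4A gene, by distance from the start in bases; blocks above a line match the gene's strand and blocks below it the opposite strand. Each gene has 4 CRE cores, spread from 233 to 36 bases before the start in Nr4a1 and lying between 231 and 143 bases before it in Nr4a3.

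The values are read counts per gene estimated by the authors. The counts of the table summed to 946766 to 1054442 in the WT libraries and to 424605 to 437437 in the cKO libraries. The depth of the libraries over all genes is unknown, because these sums cover selected genes only. Scaled counts below are read counts divided by a factor within each genotype (0.944 to 1.04), with both genotypes held at equal depth. The targeted gene, Themis, had 5212, 5882 and 5171 reads in WT replicates 1 to 3 and 970, 1247 and 1204 in cKO replicates 1 to 3. Every cKO library was thus below every WT library, in the direction of the labels, though reads remained, and which exons they came from was not analysed here. Of the 9 CD8 T cell markers listed, Cd8a and Cd3e among them, 0 were in the table, so the labelled cell type was not checked here.

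All 3 NR4A transcripts were lower in each cKO library than in any WT library, which was also true of 75.7% of all tested genes. Their summed scaled counts were 1809 ± 101 for WT and 263 ± 9.06 for cKO (mean ± SD over 3 libraries), 6.88-fold lower. The fold change was largest for Nr4a2 and smallest for Nr4a1. In bulk RNA, fewer cells with these transcripts and less of them per cell cannot be told apart.

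Nr4a1 (Gene ID 15370, chromosome 15, 101253902 to 101274795 of GRCm38.p6) encodes Nur77. It had 614, 749 and 676 reads in the WT libraries and 132, 147 and 148 in the cKO libraries. The genotypes did not overlap, and the lowest WT library stood 4.34-fold above the highest cKO library in scaled counts. Mean scaled counts were 679 ± 50.1 in WT and 142 ± 8.46 in cKO, so the gene fell 4.77-fold. On the log2 scale the change was -2.25 ± 0.13 (± standard error; adjusted p = 1.51e-07 by Benjamini-Hochberg, quasi-likelihood test in edgeR). The cKO level was 21.0% of the WT level, and for Themis itself it was also 21.0%. In the authors' deposited values the match was less close, at -1.99 for Nr4a1 and -2.25 for Themis on the log2 scale.

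Nr4a2 (Gene ID 18227, chromosome 2, 57106830 to 57124003) encodes Nurr1, the member best known for its part in dopamine neurons. It had 477, 569 and 508 reads in WT and 44.6, 49.2 and 45.0 in cKO. Both sets of libraries lay close together, and the closest pair across genotypes was still 10.1-fold apart in scaled counts. The means were 518 ± 37.5 and 46.2 ± 1.87 scaled counts, an 11.2-fold decrease, or -3.48 ± 0.15 on the log2 scale (edgeR, adjusted p = 2.42e-08). At 8.93% of WT, this was the lowest remaining level of the 3 members.

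Nr4a3 (Gene ID 18124, chromosome 4, 48045078 to 48086447) encodes Nor1. It had 530, 632 and 683 reads in WT and 86, 61.1 and 75.5 in cKO. The cKO libraries lay further apart for this member than for the others, and the highest of them was still 6.48-fold below the lowest WT library. Mean scaled counts were 613 ± 47.7 in WT and 74.3 ± 13.4 in cKO, an 8.25-fold decrease, or -3.05 ± 0.17 on the log2 scale (edgeR, adjusted p = 1.02e-07). The coefficient of variation between WT libraries was alike for the 3 members, 7.24% to 7.78%. In cKO it was 5.95% for Nr4a1 and 4.04% for Nr4a2, below the 8.38% and 14.7% that counting error alone would give at these low counts, so a spread this small over 3 libraries says little about precision.

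**Figure D2:**
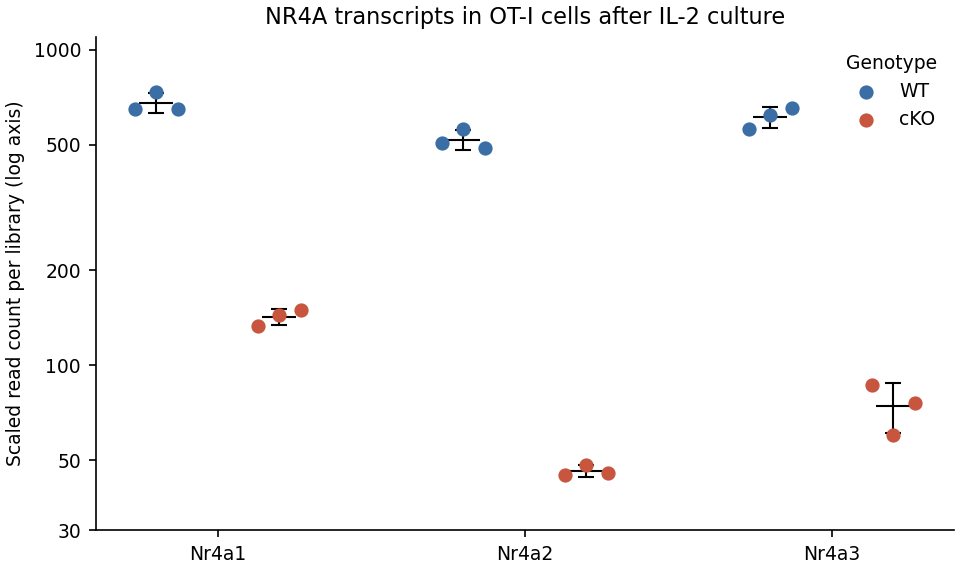
Scaled read count of each NR4A gene in each library (points, log axis) with the mean and SD of 3 libraries per genotype (bars). For each gene all 3 cKO libraries lie below all 3 WT libraries, with cKO means of 142, 46.2 and 74.3 for Nr4a1, Nr4a2 and Nr4a3.

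These calls have to be read against the table they come from. Of its genes 794 had enough reads to test and 60 did not. All 3 members passed an adjusted p of 0.05 in the lower direction, but so did 75.8% of all tested genes, and 100% passed in one direction or the other. The log2 ratio of mean cKO to mean WT counts fell between -0.94 and 1.06 for no gene, so the table appears to be selected by fold change on these same libraries, and the count of members called is near its background. When p-values were adjusted over 16996 genes, the number implied by the deposited p-values and q-values, the members had adjusted p of 5.19e-07 (Nr4a2), 2.18e-06 (Nr4a3) and 3.23e-06 (Nr4a1), and 70.3% of tested genes were called lower (edgeR). By size of change the members stood toward the low end. Nr4a2 ranked 51, Nr4a3 ranked 77 and Nr4a1 ranked 149 of 794 from the lowest log2 fold change, against a median of -1.34 over all tested genes.

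The authors' deposited table gives the same order with smaller sizes. Its log2 values were -3.12 for Nr4a2, -2.70 for Nr4a3 and -1.99 for Nr4a1. If its p-values come from a normal test, they give standard errors of 0.40, 0.56 and 0.28 for these, larger than those above. The gap between Nr4a2 and Nr4a3 lies within such errors, so their order is less sure on these values. The authors' deposited table lists q-values of 1.64e-12 for Nr4a2, 1.69e-10 for Nr4a1 and 5.38e-05 for Nr4a3, and 55.0% of its genes were lower with a q-value under 0.05. The labels do not say how the authors' model was set up.

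**Figure D3:**
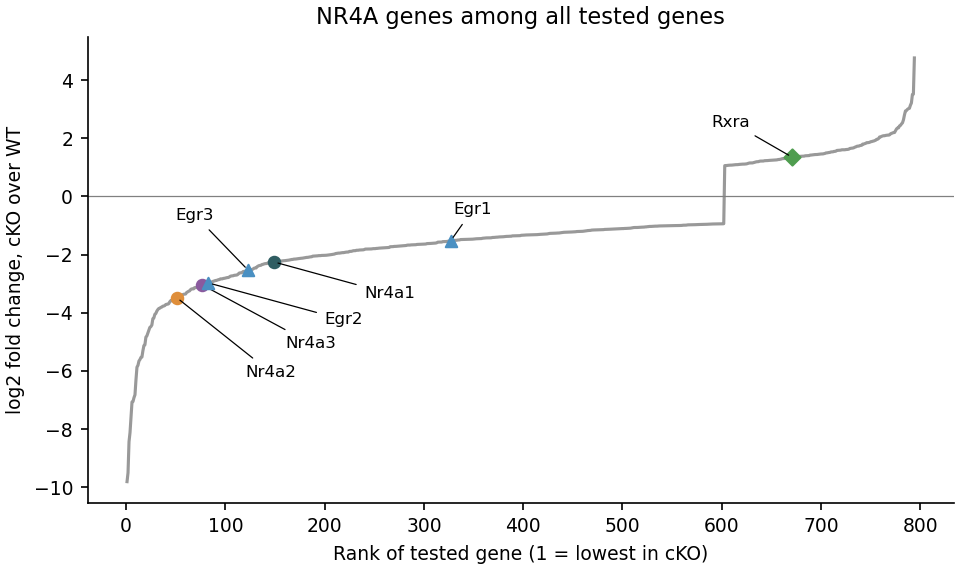
The log2 fold change of cKO over WT for all 794 tested genes in rank order (grey line), with the NR4A genes (circles), the EGR genes (triangles) and Rxra (diamond) marked. Nr4a2, Nr4a3 and Nr4a1 lie at ranks 51, 77 and 149, and the step in the line is the fold interval that holds no gene.

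Fold changes between genotypes rest on the assumption of equal depth, whereas the ratio of one member to another within a library does not. On this scale the shares of Nr4a1 and Nr4a2 differed between genotypes without overlap, whereas the share of Nr4a3 overlapped. Nr4a1 made up 37.5% ± 1.15 of the summed NR4A reads in WT and 54.2% ± 3.53 in cKO. The share of Nr4a2 was 28.6% ± 1.21 in WT and 17.6% ± 1.30 in cKO, and that of Nr4a3 was 33.9% ± 2.33 and 28.2% ± 4.51 (mean ± SD, n = 3).

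The Nr4a2 to Nr4a1 ratio was lower in every cKO library. There were 0.777, 0.760 and 0.752 reads of Nr4a2 for each read of Nr4a1 in WT replicates 1 to 3 (0.5 added to each count), and 0.340, 0.337 and 0.307 in cKO replicates 1 to 3. The ratio was thus 2.33-fold lower in cKO, a log2 difference of -1.22 with a standard error of 0.05, and the genotypes did not overlap. Nr4a3 per Nr4a1 was 0.863, 0.844 and 1.01 in WT and 0.653, 0.417 and 0.511 in cKO, a log2 difference of -0.80 with a standard error of 0.20, again without overlap. Nr4a3 per Nr4a2 was 1.11, 1.11 and 1.34 in WT and 1.92, 1.24 and 1.67 in cKO. Here the genotypes overlapped, with a log2 difference of 0.42 and a standard error of 0.21. Two-sided exact permutation tests over the 6 libraries gave p = 0.10, 0.10 and 0.20 for the 3 pairs, or 0.15, 0.15 and 0.20 after Benjamini-Hochberg adjustment. With 3 libraries against 3 the smallest p this test allows is 0.10, so no pair could pass 0.05.

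**Figure D4:**
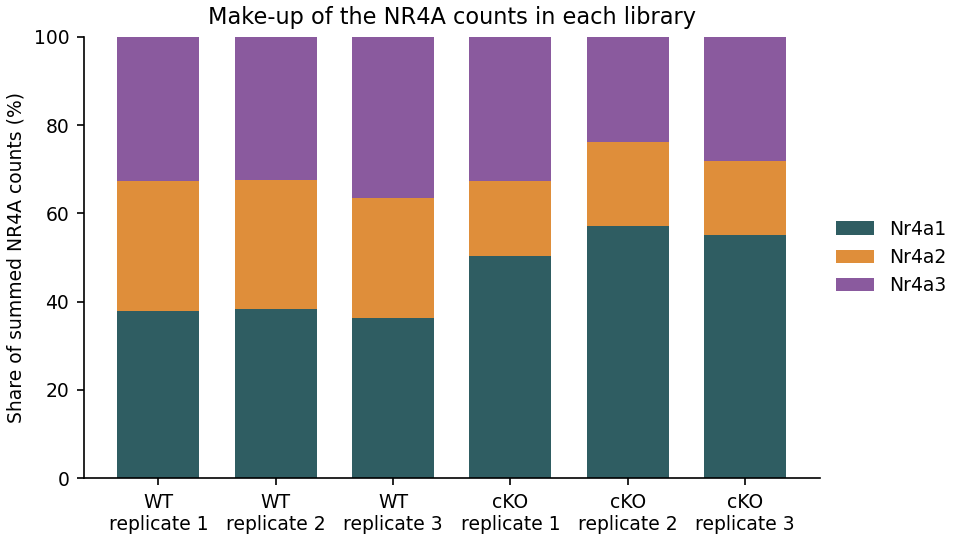
Share of each member in the summed NR4A read counts of each library, in percent, as stacked bars from 0 to 100. Nr4a1 takes 36.2% to 38.4% of the counts in the WT libraries and 50.3% to 57.1% in the cKO libraries.

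Levels of different genes can be set side by side only per length. GENCODE M21 gives 3509 exonic bases for Nr4a1, 4059 for Nr4a2 and 5987 for Nr4a3, as the union of their transcripts, and no other annotated gene overlaps them. On the scale of scaled counts per kilobase of exon, WT levels were 193 ± 14.3 for Nr4a1, 128 ± 9.24 for Nr4a2 and 102 ± 7.96 for Nr4a3, and the libraries of neighbouring genes in this order did not overlap. In cKO the levels were 40.6 ± 2.41 for Nr4a1, 12.4 ± 2.23 for Nr4a3 and 11.4 ± 0.461 for Nr4a2, and here the last 2 overlapped. Nr4a1 was thus the member with the highest level per length in both genotypes. With the longest coding transcript as the length, the WT order was the same, and Nr4a2 and Nr4a3 both stood at 13.0 in cKO.

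Upstream of the NR4A genes lie calcineurin, NFAT, MEF2 and CREB-type factors. Of 20 such genes listed, 1 was in the table. This was Crem, which encodes activators and repressors that bind the CRE. It had 845, 735 and 909 reads in WT and 306, 373 and 320 in cKO, without overlap, a log2 fold change of -1.32 (edgeR, adjusted p = 9.24e-06). Its call rested on the scaling: with TMM, which centres the table on itself, the value was -0.03 (adjusted p = 0.884; 0.905 with DESeq2 size factors, and called under the 13 other alternatives). The authors' deposited table gives Crem a log2 value of -1.01 with a q-value of 3.44e-03. The listed MEF2, calcineurin and NFAT genes were not in the table and were not analysed here.

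Among 14 partners and coregulators, 1 was in the table, and it changed in the opposite direction to the receptors. Rxra, the RXR subunit with which Nur77 and Nurr1 can pair, had 722, 715 and 561 reads in WT and 1513, 1714 and 1870 in cKO. All cKO libraries were above all WT libraries, with means of 669 ± 117 and 1699 ± 182 scaled counts, a 2.54-fold rise, or 1.35 ± 0.15 on the log2 scale (edgeR, adjusted p = 1.37e-05). The authors' deposited table gives Rxra a log2 value of 0.91 with a q-value of 1.78e-03.

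Of 21 other nuclear receptors listed, 1 was in the table. Thrb, the beta thyroid hormone receptor, had 287, 321 and 320 reads in WT and 50.3, 53.9 and 51.1 in cKO. The genotypes were far apart and the libraries of each lay close together, with a log2 fold change of -2.58 ± 0.14 (edgeR, adjusted p = 1.11e-07), a size between those of Nr4a1 and Nr4a3.

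Of 26 TCR-induced early genes listed, 12 were in the table and all 12 fell, where 75.8% of all tested genes were called lower. They had a median log2 fold change of -1.60 against -1.34 over all tested genes. Under scalings that centre the table on itself, 3 of them turned sign, of which Junb (edgeR, adjusted p of 0.0207 and 0.0148) and Myc (0.0121 and 8.32e-03) were then called higher in cKO and Nab2 was not (0.0671 and 0.0606), and the calls of 4 more (Egr1, Fos, Jun and Ier3) ended, with adjusted p of 0.132 to 0.280. The 4 with the smallest p were Cd69, an activation marker, at -1.94, Irf4, a factor whose level follows TCR signal strength, at -2.36, Ifng, the type II interferon, at -2.79, and Myc, a transcription factor of cell growth, at -1.07 (edgeR, adjusted p of 1.23e-08 to 1.29e-07). In the authors' deposited values the genes that turned sign were lower in cKO. These log2 values were -0.90 for Nab2 (q-value 1.21e-06), -0.89 for Myc (1.13e-05) and -0.76 for Junb (0.136). The genes whose calls ended were at -1.23 for Egr1 (1.35e-03), -1.48 for Fos (6.77e-06), -0.98 for Jun (0.185) and -1.20 for Ier3 (1.69e-03).

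The EGR zinc-finger factors are, like the NR4A receptors, immediate early genes of TCR signalling, and 3 of them were in the table. Egr2 had 388, 458 and 482 reads in WT and 63.7, 40 and 64 in cKO, a log2 fold change of -2.97. Egr3 had 798, 1003 and 718 reads in WT and 129, 151 and 154 in cKO, a value of -2.54. Egr1 had 954, 873 and 987 reads in WT and 297, 353 and 329 in cKO, a value of -1.52. None of the 3 overlapped between genotypes, and all 3 were called lower (edgeR, adjusted p of 3.55e-07 to 1.75e-06), where 75.7% of tested genes did not overlap and were lower and 75.8% were called lower. The call of Egr1 ended under the table-centred scalings, at -0.23 with each (edgeR, adjusted p of 0.132 and 0.151). Within each library, the mean log2 count of the 3 NR4A genes minus that of the 3 EGR genes was -0.31, -0.19 and -0.18 in WT and -0.75, -0.76 and -0.89 in cKO. Relative to the EGR genes the NR4A genes thus differed between cKO and WT by -0.57 on the log2 scale (standard error 0.06). The genotypes did not overlap, and the two-sided exact permutation test gave p = 0.10, the smallest it allows. This difference is between family means and did not hold gene by gene. Egr1 (-1.52) fell less than every NR4A member, whereas Egr2 (-2.97) and Egr3 (-2.54) fell more than Nr4a1 (-2.25). Measured the same way against Themis, the NR4A mean was -3.28, -3.19 and -3.07 in WT and -3.60, -4.02 and -3.91 in cKO, a difference of -0.67 with a standard error of 0.14 (exact permutation p = 0.10). These ratios do not depend on how the libraries are scaled.

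Inhibitory receptors and TOX factors are often found with NR4A receptors in exhausted CD8 T cells. Of 15 listed, 6 were in the table, with 5 called lower and 1 higher (75.8% of tested genes were called lower) and a median log2 fold change of -1.43, against -1.34 over all tested genes. Lag3, an inhibitory receptor for MHC class II, fell by 4.05 on the log2 scale. Pdcd1 (PD-1) stood at -1.93, Ctla4 at -1.43 and the costimulatory receptor Tnfrsf9 at -1.42, and the calls of these 3 ended under the table-centred scalings (edgeR, adjusted p of 0.113 to 0.505), while Tigit turned sign. Cd200r1, an inhibitory receptor of the CD200 pathway, was the gene that rose, by 1.09. The TOX genes were not in the table and were not analysed here.

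NR4A receptors are also tied to cell death in thymocytes and to the regulatory T cell programme. Of 12 genes that regulate apoptosis the table held 3, and all 3 fell, against 75.8% of tested genes called lower. They were the BH3-only genes Pmaip1 (-2.04) and Bbc3 (-1.93) and the anti-apoptotic Bcl2a1b (-1.69), whose reads can be shared with near-identical copies and whose call ended under the table-centred scalings (edgeR, adjusted p of 0.215 and 0.223). Their median log2 fold change was -1.93, against -1.34 over all tested genes. Of 5 regulatory T cell genes, Ctla4 and Ikzf2, which encodes the factor Helios, were in the table and both fell, Ikzf2 by 1.09, though it turned sign under the same scalings. Bcl2l11 and Foxp3 were not analysed here.

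The genes whose values were most like those of each member were found by the root-mean-square difference of log2 scaled counts, each gene centred on its own mean over the 6 libraries, among 436 tested genes with at least 100 reads on average in WT. This measure is set mainly by the size of the genotype difference. Closest to Nr4a1 were Themis (0.08), Herc6 (0.08), Irf4 (0.10), Nfil3 (0.10) and Slc2a3 (0.12), which encode the deleted protein, an interferon-induced ubiquitin ligase, a pair of transcription factors and a glucose transporter. Nearest to Nr4a2 were Vegfa (0.09), the vascular growth factor, Phf11c (0.10), Isg15 (0.14), an interferon-induced ubiquitin-like protein, Slfn5 (0.16) and Plk2 (0.17), a polo-like kinase. For Nr4a3 they were Glrp1 (0.10), Egr2 (0.11), Isg20 (0.13), an interferon-induced exonuclease, Cmpk2 (0.13), a mitochondrial nucleotide kinase, and Ifih1 (0.15), the RNA sensor MDA5. The members were further from one another than from these closest genes, at 0.29 for Nr4a2 with Nr4a3, 0.45 for Nr4a1 with Nr4a3 and 0.61 for Nr4a1 with Nr4a2. The named genes were picked as the closest of 436, so this does not show that the members are unusually unlike. The candidates for each member left out the other members.

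Nr4a1 is also induced when tissue is handled, so a list of stress genes was set beside the members. Of 13 such genes, the table held 6, each with a lower mean in cKO, where 75.8% of all tested genes were called lower. Their summed scaled counts were 2042 to 2067 in WT and 383 to 392 in cKO. Atf3, a stress-induced factor, was at -5.87 and made up 1137 ± 56.2 of that sum in WT. Ier3 was at -1.47, Gadd45b at -1.24, Hspa1a at -2.17 and Hspa1b at -1.47, and Gadd45a had means of 100.1 ± 15.2 scaled counts in WT and 50.1 ± 8.18 in cKO. Under the table-centred scalings both Gadd45 genes turned sign and the calls of Ier3, Hspa1a and Hspa1b ended (edgeR, adjusted p of 0.0993 to 0.630). The part of handling in the NR4A values was not tested.

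Markers of other cell types also differed between genotypes, in a table where 24.2% of tested genes were called higher. Of 10 NK cell markers, the table held 7, each higher in cKO, and their summed scaled counts were 568 to 881 in WT and 1450 to 2591 in cKO. Of 10 B cell markers, the table held 3, each higher (60.0 to 102 in WT, 118 to 308 in cKO). Of 13 myeloid and dendritic markers 3 were in the table, 2 higher and 1 lower (400.4 to 512 in WT, 195 to 330 in cKO), and of 5 MHC class II genes 2, 1 each way (253 to 307 in WT, 54.4 to 192 in cKO). Each of these sums was set mainly by the gene that was lower. Mpeg1 had means of 385 scaled counts in WT and 51.0 in cKO, and H2-Ab1 had 254 and 76.7. Itgax, Fcgr3 and H2-Eb1 had higher means in cKO, so the sums do not stand for the markers as a group. Both gamma-delta T cell markers in the table, of 6 listed, were higher (29.5 to 57.2 in WT, 76.5 to 165 in cKO). Ikzf2 was the 1 of 5 CD4 and regulatory T cell markers in the table. The table held 3 of 10 granulocyte and erythroid markers, all too low to test (1.97 to 12.5 in WT, 7.05 to 35.3 in cKO), with Hbb-bs at 0 in WT and Hbb-bt at 0 in cKO. No other marker in the table was at 0 in a genotype, and the part of other cell types in the NR4A values was not tested.

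The 3 members kept their direction and their call in each of the 15 alternatives run. Outside the table-centred scalings most genes of this selected table were called too, so a kept call says little there. Adjusted over all implied genes, 162 were called higher and 558 lower of 794. With the DESeq2 test these were 204 and 650 of 854. Under TMM scaling, which shifted each gene's value upward by a median of 1.29 on the log2 scale, the log2 fold changes were -2.19 for Nr4a2, -1.76 for Nr4a3 and -0.96 for Nr4a1, with 27.0% of genes called lower. Their order was Nr4a2, Nr4a3, Nr4a1 in every setting.

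**Figure D5:**
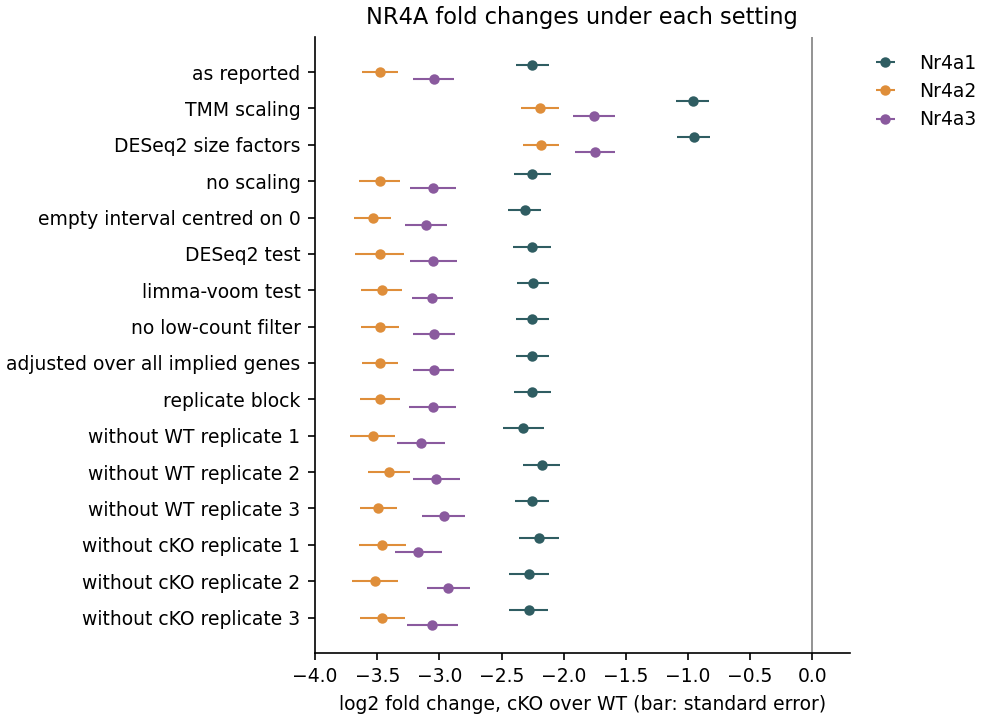
The log2 fold change of cKO over WT for each NR4A gene (points, with its standard error) as reported and under 15 alternatives. The values move by about 1.29 under the scalings that centre the table on itself and stay below 0 throughout, from -3.54 for Nr4a2 to -0.96 for Nr4a1 at the extremes.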

How the data were processed

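RNA from cultured OT-I cells was sequenced on a DNBSEQ-G400, per the labels' protocols, in 3 WT and 3 Themis cKO libraries. The submitters' processing notes name, without roles, RSEM 1.2.12, HISAT2 2.0.4, Bowtie2 2.2.5 and DESeq2 1.4.5 with the GRCm38.p6 genome. The authors deposited estimated counts for 854 genes (66.1% of values whole) and, per the file headers, a log2 fold change, p-value and q-value for each. The sources used here do not state how the genes were chosen.

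Counts were rounded and fitted over the whole table with edgeR 4.0.16 in R 4.3.3 (quasi-likelihood test of genotype, with no other term). Genes passing edgeR's filter at a smallest count of 10 were tested, and Benjamini-Hochberg adjusted p-values were called at 0.05. Median-of-ratios factors were applied within each genotype and the genotypes were held at equal depth, because TMM assumes that most genes do not change. Standard errors are the fold change divided by the root of F. Within-library ratios used unrounded counts plus 0.5 and exact permutation tests (scipy 1.17.1). The edgeR fit was tested on simulated counts in which a set of genes had preset changes. Replicate pairs differed by more than sampling noise (chi-square of 6.10 to 18.9 per degree of freedom), so none was taken as a duplicate. Depth is unknown, so precision rests on the replicates.

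The members, lists and rules were chosen with earlier results of these data known. Named genes are the members, Themis, the 5 genes most like each member (predicted genes left out), the EGR genes and other nuclear receptors in the table, and up to 4 genes per list with the smallest p. Others were named after their values were seen, as exceptions, as stress genes beyond those 4 or as genes with 4 CRE cores. Alternatives covered scaling, the test (DESeq2 1.42.0, limma 3.58.1), the filter, the adjustment, the replicate number as a block and leaving out single libraries. For named genes other than the members and Themis they were added after seeing the data. Promoters are from RefSeq (GRCm38.p6) and exons from GENCODE M21 on that build.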

Additional observations from a re-analysis of the deposited data

How the results depend on the processing

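The 3 NR4A genes, Themis and the count of members called kept their direction and call, and the 5 within-library ratios, which cannot pass 0.05, kept their direction, in all 115 recomputed values. Apart from TMM and DESeq2 size factors, the alternatives called most genes of this selected table, so kept calls say little there. With each library left out in turn, the log2 fold changes spanned -2.32 to -2.18 for Nr4a1, -3.54 to -3.41 for Nr4a2 and -3.17 to -2.93 for Nr4a3. The ratio of Nr4a3 to Nr4a2 was the least settled, at 0.28 to 0.60 on the log2 scale. Of 45 other named genes, 26 kept their call in every alternative and 19 lost it or turned sign under TMM and DESeq2 size factors only. Those that turned had log2 fold changes with TMM and with DESeq2 size factors of 0.30 and 0.31 for Nab2, 0.28 and 0.29 for Junb, 0.23 and 0.23 for Myc, 0.15 and 0.15 for Tigit, 0.20 and 0.21 for Ikzf2, 0.29 and 0.30 for Gadd45a, 0.053 and 0.059 for Gadd45b, and 0.15 and 0.16 for Pak1. By construction these scalings move genes upward together, by a median of 1.29 and 1.30. The authors' deposited log2 values were negative for Nab2 (-0.90), Junb (-0.76), Myc (-0.89), Tigit (-0.74), Ikzf2 (-0.88), Gadd45a (-0.95) and Gadd45b (-1.10). Their q-values were 0.136 for Junb, 0.310 for Tigit, 0.0506 for Ikzf2 and 1.21e-06 to 3.89e-03 for the rest of these. Counts of genes called were 192 higher and 602 lower as reported, 226 and 213 with TMM, and 224 and 211 with DESeq2 size factors.

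Libraries of the 2 genotypes share replicate numbers. Same-numbered libraries did not deviate together (correlations of -0.06, -0.05 and -0.15 over tested genes), so the numbers were not taken to pair them. With a replicate block the log2 fold changes were -2.25, -3.48 and -3.05 for Nr4a1, Nr4a2 and Nr4a3, and 191 genes were higher and 602 lower. Depth over all genes, not used here, limits every fold change between genotypes.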
